A study of Caenorhabditis elegans with 24 samples.

Results

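The genes described here encode enzymes of peroxisomal beta-oxidation in Caenorhabditis elegans, the pathway that trims the side chains of ascarosides. They are 5 acyl-CoA oxidase genes (acox-1.1, acox-1.2, acox-1.5, acox-1.6 and acox-3) together with maoc-1, dhs-28 and daf-22. Each was chosen by name and read from the probe set that carries its symbol alone, taking the brighter probe set of dhs-28, which has 2. The probe sets of acox-1.5, acox-1.6, acox-3 and daf-22 are of the _s_at kind, whose probes may match several transcripts. All 8 had such a probe set among the 17118 genes on the array, and all 8 were among the 12277 genes bright enough to test (log2 intensity above 4 on at least 3 arrays). The oxidase genes acox-1.3 and acox-1.4 had no probe set of their own and were not analysed here. The loci are F08A8.1 for acox-1.1, F08A8.2 for acox-1.2, C48B4.1 for acox-1.5, F59F4.1 for acox-1.6, F58F9.7 for acox-3, E04F6.3 for maoc-1, M03A8.1 for dhs-28 and Y57A10C.6 for daf-22. In the RefSeq gene order acox-1.1 is followed by acox-1.2 and then by acox-1.3.

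RNA of whole N2 (wild-type) worms was read on 24 Affymetrix C. elegans arrays. All worms were kept at 20 °C on plates for RNA interference (RNAi) and collected at day 4 of adulthood. The RNAi was a control, or was aimed at rheb-1 (Rheb) or at let-363 (TOR). TOR is a kinase that couples nutrients to growth, and Rheb is a GTPase upstream of it. Worms on each kind of plate were fed freely or fasted for 48 h. Control RNAi had 5 arrays in each feeding state, Rheb RNAi 4 and TOR RNAi 3. All groups share the N2 strain and growth on RNAi plates, the controls included.

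Peroxisomal beta-oxidation shortens fatty chains in a cycle. An acyl-CoA oxidase dehydrogenates the chain, the hydratase MAOC-1 adds water, the dehydrogenase DHS-28 oxidises the product, and the thiolase DAF-22 releases acetyl-CoA and a shorter chain. In C. elegans this cycle makes the short-chain ascarosides, small glycolipids that worms release as pheromones acting on dauer formation, mating and aggregation. It also breaks down very long fatty acids, and worms that lack DAF-22 or DHS-28 have enlarged intestinal lipid droplets.

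The median intensity of an array lay between 46.9 and 58 (log2 5.55 to 5.86), and precision is limited by how many arrays a group has. Both probe sets of let-363 read lower on TOR RNAi (log2 differences of -1.45 and -1.93 in fed worms), whereas rheb-1 was lower on Rheb RNAi plates by 1 of 2 probe sets (-2.55 in fed worms, and -0.3 by the other, which was not called). The log2 ratio of 3' to middle control probes, a sign of RNA quality, ran from 0.71 to 1.52 over the arrays, and the highest value lay among fed Rheb RNAi arrays. Within a group, arrays numbered 2 held the lowest value in 25 of 48 sets of 1 gene and 1 group, and TOR fasted array 1 was lowest of its group for all 8 genes. Levels below are log2 intensities, and differences are log2 differences of group means with their standard errors (SE). A gene is said to rise, fall or be called where limma's p, Benjamini-Hochberg adjusted over all genes tested, was under 0.05. Levels are not compared between genes, because probe sets differ in brightness.

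All members but maoc-1 were called over the groups, and acox-1.5 had the widest span of group means. By limma's F test over the 6 groups, 7 of 8 members were called, against 56.5% of all genes tested. The span between the highest and the lowest group mean was 6 for acox-1.5, which is at the 99.6th percentile of all genes tested. It was 1.61 for acox-1.2, 1.45 for dhs-28, 1.31 for acox-1.6, 1.2 for acox-1.1, 0.85 for daf-22, 0.73 for acox-3 and 0.61 for maoc-1, and the median over all genes was 0.71. For maoc-1 the F test gave an adjusted p of 0.12, 0.044 without Rheb fed array 2, and 0.002 with replicate number as a block over all plates. That block joins TOR RNAi arrays to same-numbered arrays of other plates, which a check did not pair (correlations of -0.38 to 0.28). Results with the block over all plates, here and below, carry this limit. The call of acox-3 (adjusted p = 0.049) was lost, at 0.052 to 0.12, without any of the Rheb fasted, TOR fed or TOR fasted arrays, control fed array 1 or 3, control fasted array 1, 3 or 4, or Rheb fed array 1 or 3. It was also lost under further quantile normalization (0.061), with no filter on dim probe sets (0.059) and with a robust prior variance (0.05). The call of acox-1.6 (0.022) was lost, at 0.055 to 0.086, without Rheb fasted array 1, 2 or 3 or TOR fed array 3, and that of daf-22 (0.015) was 0.056 without Rheb fasted array 2.

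**Figure D1:**
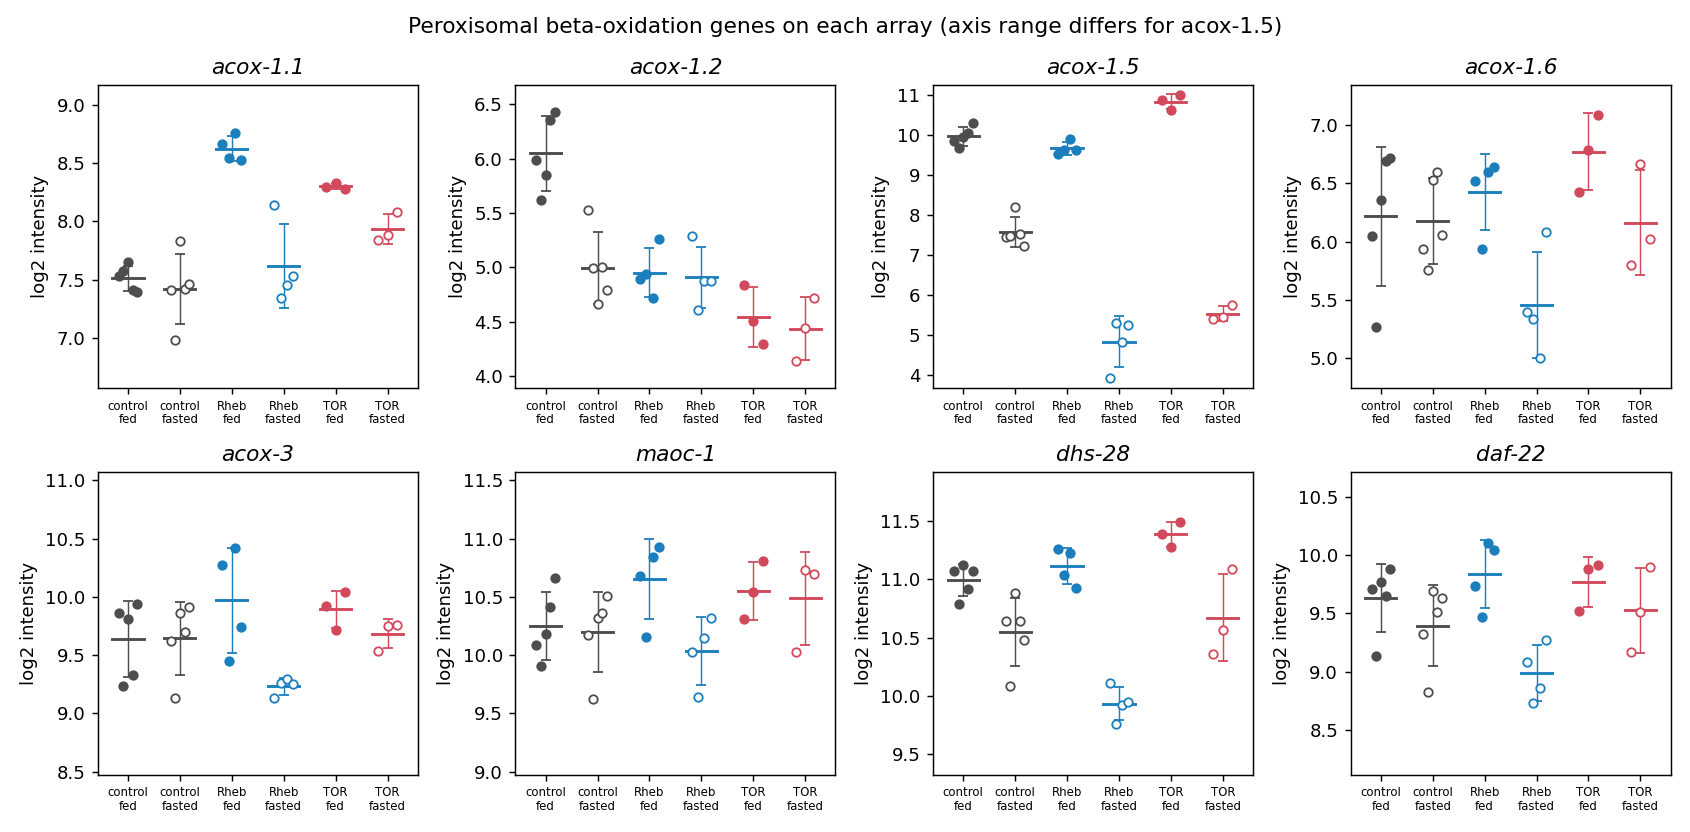
Log2 intensity of the 8 genes on each of the 24 arrays (y axis), by RNAi plate and feeding (x axis). Points are arrays, filled for fed and open for fasted worms, thick bars are group means and thin bars are 1 SD. acox-1.5 runs over a wider range than the others, from 3.94 to 11.

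Fasting lowered some of these genes on every plate and raised none by the test. On control RNAi 3 of 8 members fell (acox-1.2, acox-1.5 and dhs-28), against 7.91% of all genes that fell, 11% that rose and 18.9% called either way. On Rheb RNAi 6 of 8 fell (all but acox-1.2 and maoc-1), against 8.67% that fell, 3.23% that rose and 11.9% either way. On TOR RNAi 2 of 8 fell (acox-1.5 and dhs-28), against 5.16% that fell, 1.08% that rose and 6.24% either way. The median difference over the members was -0.16 on control, -0.91 on Rheb and -0.31 on TOR RNAi, beside 0.04, 0.09 and 0.08 over all genes tested. Fasted arrays lay wholly below fed arrays for 2 of 8 members on control RNAi (5.87% of all genes), for 5 of 8 on Rheb RNAi (8.14%) and for 3 of 8 on TOR RNAi (10.8%). The RNA is that of whole worms, so fewer cells of a type and less RNA per cell cannot be told apart.

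**Figure D2:**
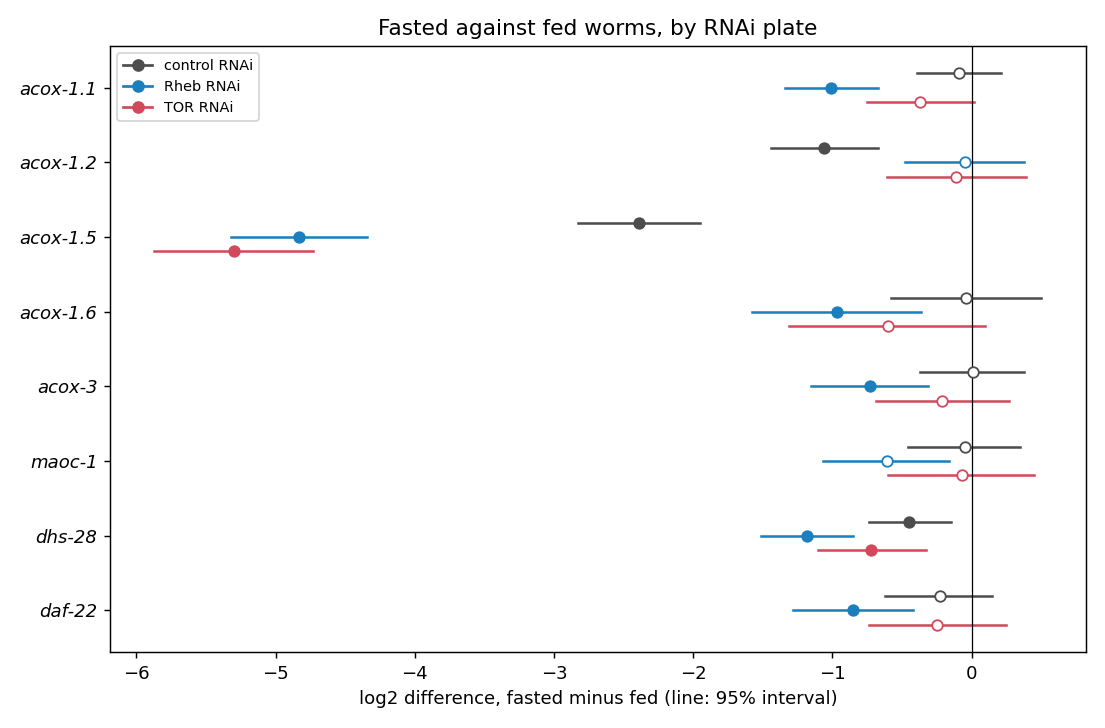
Log2 difference between fasted and fed worms (x axis) for the 8 genes (y axis) on control, Rheb and TOR RNAi plates. Points are estimates, filled where limma's adjusted p is under 0.05, and lines are 95% intervals. acox-1.5 lies at -2.39, -4.83 and -5.3 on the 3 plates.

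Genes from 3 cell types were followed beside these results, since whole worms hold them all. Of 12 intestine genes 4 fell with fasting on control, 7 on Rheb and 6 on TOR RNAi. Of all genes, 7.91%, 8.67% and 5.16% fell on these plates. The summed intensity of the intestine genes was 7330 to 10500 on fed and 5180 to 7170 on fasted control arrays, 5670 to 7620 and 4320 to 5790 on Rheb RNAi arrays, and 8230 to 9200 and 4640 to 5040 on TOR RNAi arrays. Of 12 epidermis genes 5 fell on control RNAi and 3 on Rheb RNAi, and on TOR RNAi limma called 0, with 1 at an unadjusted p under 0.05. Of 12 germline genes limma called 0 on any plate, with 3 on control RNAi at an unadjusted p under 0.05. With the replicate number as a block, however, 5 germline genes fell on control RNAi (glh-2, pgl-1, pgl-3, puf-5 and rme-2). A further 2, deps-1 and htp-3, rose on Rheb RNAi. Epidermis counts became 5 lower and 1 higher on control, 4 lower and 3 higher on Rheb and 1 each way on TOR RNAi. Intestine counts became 5, 8 and 8 lower. Of all genes, that fit called 15.5% lower and 22.7% higher on control RNAi. On Rheb RNAi it called 13.4% lower and 17.7% higher, and on TOR RNAi 8.45% lower and 5.96% higher. Epidermis sums were 6730 to 12500 on fed and 4480 to 6040 on fasted control arrays, 4870 to 8500 and 3760 to 5460 on Rheb RNAi arrays, and 3530 to 5270 and 3670 to 5290 on TOR RNAi arrays. Germline sums were 30700 to 41000 on fed control arrays and 18100 to 35800 over the other groups. No marker gene had a group mean below log2 4 except pho-1 in fasted TOR RNAi worms and bli-1 in both TOR RNAi groups. The part of these tissues in the members' differences was not tested.

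acox-1.5 encodes an acyl-CoA oxidase. Its log2 intensity on the fed control arrays was 9.84, 9.68, 9.96, 10.05 and 10.31, and on the fasted control arrays 7.46, 7.47, 8.2, 7.52 and 7.22. On Rheb RNAi it was 9.53, 9.63, 9.9 and 9.62 on fed and 3.94, 5.32, 4.83 and 5.27 on fasted arrays. On TOR RNAi it was 10.88, 10.62 and 11 on fed and 5.4, 5.47 and 5.75 on fasted arrays. Fasted arrays lay below fed arrays on each plate, without overlap, and fasted Rheb and TOR RNAi arrays lay below every fasted control array. As linear intensities the group means were 1010 ± 171 (SD, n = 5) in fed and 196 ± 56.7 (SD, n = 5) in fasted control worms, and 1840 ± 241 (SD, n = 3) and 46.7 ± 6.24 (SD, n = 3) in fed and fasted TOR RNAi worms.

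acox-1.5 fell by 2.39 ± 0.21 (limma's adjusted p = 2.2e-08) with fasting on control RNAi, to 19% of the fed level. It fell by 4.83 ± 0.24 (1e-12) on Rheb RNAi, to 3.51%, and by 5.3 ± 0.27 (4.5e-12) on TOR RNAi, to 2.54%. On the 7 fasted Rheb and TOR RNAi arrays acox-1.5 lay below the array's median, so these remainders rest on dim readings. It was lower in 12 of 12 fasted arrays than in the fed array of the same number, with differences of -3.1 to -1.76 on control, -5.59 to -4.31 on Rheb and -5.49 to -5.16 on TOR RNAi. Its 6 groups ran, from high to low, fed TOR, fed control, fed Rheb, fasted control, fasted TOR and fasted Rheb. Of these neighbours, fed control and fed Rheb differed by 0.3 ± 0.23 (adjusted p = 0.33), and fasted TOR and fasted Rheb by 0.7 ± 0.26 (0.13), so neither pair passed the test. The arrays of the latter pair did not overlap. It was called with replicate number as a block over all plates (0.73, 0.032), which joins TOR RNAi arrays to unpaired ones.

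acox-1.2 encodes an oxidase from the locus next to acox-1.1. It was dim, below the array's median on 19 of 24 arrays. On fed control arrays it read 5.99, 5.62, 5.85, 6.36 and 6.43, and on fasted control arrays 5.53, 4.99, 4.66, 5 and 4.79. On Rheb RNAi it read 4.89, 4.94, 4.72 and 5.26 on fed and 5.29, 4.61, 4.87 and 4.87 on fasted arrays. On TOR RNAi it read 4.84, 4.51 and 4.29 on fed and 4.14, 4.44 and 4.72 on fasted arrays. Fed control arrays lay above all others. acox-1.2 fell by 1.06 ± 0.19 (limma's adjusted p = 0.00023) with fasting on control RNAi, to 48.1%. On Rheb RNAi it was at -0.05 (95% interval -0.48 to 0.38) and on TOR RNAi at -0.11 (-0.61 to 0.39), and neither passed. Among the groups, fed control was highest and was followed by fasted control, and the neighbours below it differed by 0.04 to 0.36, with none called.

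acox-1.1 encodes the oxidase best known for shortening ascaroside side chains. Fed control arrays read 7.53, 7.57, 7.65, 7.41 and 7.39 and fasted control arrays 7.41, 6.98, 7.83, 7.42 and 7.46. On Rheb RNAi fed arrays read 8.66, 8.54, 8.76 and 8.53 and fasted arrays 8.14, 7.34, 7.45 and 7.53. On TOR RNAi fed arrays read 8.29, 8.33 and 8.28 and fasted arrays 7.84, 7.88 and 8.08. The fed arrays of both knockdowns lay above all control arrays. With fasting, acox-1.1 fell by 1.01 ± 0.16 (limma's adjusted p = 8.6e-05) on Rheb RNAi, to 49.8%. It was at -0.09 (95% interval -0.39 to 0.21) on control and -0.37 (-0.75 to 0.02) on TOR RNAi, which did not pass. The 6 groups ran, from high to low, fed Rheb, fed TOR, fasted TOR, fasted Rheb, fed control and fasted control, and no neighbours in this order differed by the test. The arrays of fed Rheb and fed TOR, and those of fed and fasted TOR, did not overlap.

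acox-1.6 and acox-3 encode 2 further acyl-CoA oxidases. acox-1.6 was dim on the fasted Rheb RNAi arrays (5.4, 5.34, 5 and 6.08) beside the fed ones (6.52, 5.94, 6.6 and 6.64). It fell by 0.97 ± 0.29 (limma's adjusted p = 0.033) with fasting on Rheb RNAi, and the arrays overlapped. On control RNAi it was at -0.04 (95% interval -0.58 to 0.5) and on TOR RNAi at -0.6 (-1.31 to 0.1), which did not pass. acox-3 read 10.27, 9.45, 10.42 and 9.74 on fed and 9.13, 9.26, 9.3 and 9.25 on fasted Rheb RNAi arrays. It fell by 0.73 ± 0.2 (adjusted p = 0.018), without overlap, and was at 0.01 (-0.37 to 0.38) on control and -0.21 (-0.69 to 0.27) on TOR RNAi. The call of acox-1.6 on Rheb RNAi was lost, at -0.95 to -0.82, without any of Rheb fed arrays 1, 3 and 4 or Rheb fasted arrays 1, 2 and 3, and that of acox-3 without Rheb fed array 1 (-0.63) or 3 (-0.58). Neighbours in the order of the 6 groups were not called for either gene. Fasted Rheb was called below fed control for acox-3 without control fed array 2 (-0.5), blocked on replicate number (-0.33) and with arrays centred on their medians (-0.52), and below fasted TOR for acox-1.6 with the block over all plates (by 0.86).

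dhs-28, the dehydrogenase of the cycle, is the only one of the 3 later enzymes that fell on all plates. It read 11.07, 10.79, 11.12, 10.92 and 11.07 on fed and 10.64, 10.09, 10.88, 10.64 and 10.48 on fasted control arrays. On Rheb RNAi it read 11.26, 11.04, 11.23 and 10.93 on fed and 10.11, 9.76, 9.92 and 9.95 on fasted arrays, and on TOR RNAi 11.39, 11.28 and 11.49 on fed and 10.36, 10.57 and 11.09 on fasted arrays. The fed and fasted arrays overlapped on control RNAi only. dhs-28 fell by 0.45 ± 0.14 (limma's adjusted p = 0.031) on control, 1.18 ± 0.16 (1e-05) on Rheb and 0.72 ± 0.18 (0.017) on TOR RNAi, and was lower in 12 of 12 fasted arrays than in the fed array of the same number. The control call was lost, at -0.43 to -0.33, without control fed array 1, 3 or 5 or control fasted array 2 or 5, with the mean of the gene's probe sets (-0.28, adjusted p = 0.21) and in a fit of the 2 control groups alone (0.064). The TOR call was lost, at -0.71 to -0.56, without TOR fed array 1 or 3 or TOR fasted array 1 or 2, with the mean of the probe sets (-0.57, 0.094) and in a fit of the 2 TOR groups alone (0.093). The dimmer probe set of dhs-28 fell by 0.86 ± 0.23 (adjusted p = 0.014) on Rheb RNAi, and was at -0.12 on control and -0.42 on TOR RNAi, neither called.

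daf-22, the thiolase that closes the cycle, read 9.73, 9.47, 10.1 and 10.04 on fed and 9.08, 8.73, 8.86 and 9.27 on fasted Rheb RNAi arrays. It fell by 0.85 ± 0.21 (limma's adjusted p = 0.007) there, to 55.5%, without overlap. On control RNAi it was at -0.23 (95% interval -0.62 to 0.15), although the fasted array was lower in 5 of 5 numbers, and on TOR RNAi it was at -0.25 (-0.74 to 0.25). maoc-1, the hydratase, read 10.68, 10.16, 10.84 and 10.93 on fed and 10.03, 9.64, 10.15 and 10.32 on fasted Rheb RNAi arrays, which overlapped. Its difference there was -0.61 ± 0.22 (adjusted p = 0.074), and -0.78 (0.021) without Rheb fed array 2. Fasted minus fed arrays of one number were -0.68 to -0.53 in 4 of 4 pairs, and with the replicate number as a block maoc-1 fell (adjusted p = 8.2e-05), so that 7 of 8 members fell, against 13.4% of all genes in that fit. On control and TOR RNAi maoc-1 was at -0.05 (-0.46 to 0.35) and -0.07 (-0.6 to 0.45). For dhs-28 only fasted control and fasted Rheb, the lowest neighbours in the order, differed (0.61 ± 0.15, adjusted p = 0.0059), and for daf-22 and maoc-1 no neighbours were called. That pair was called for daf-22 with the block (-0.35, adjusted p = 0.017) and without control fasted array 2 (-0.55, 0.044), and fasted TOR above fed control for maoc-1 with the block over all plates (0.42, 0.032). Fasted TOR was called below fed control for dhs-28 without TOR fasted array 3 (-0.53, 0.019), with the block over all plates (-0.33, 0.046) and after median centring (-0.47, 0.018). The fed TOR arrays of dhs-28 lay above its fed Rheb arrays without overlap, though that pair was not called (0.28 ± 0.17, limma's adjusted p = 0.39).

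The fasting responses were then compared between plates, as an interaction term. Between Rheb and control RNAi 3 of 8 members were called, 2 lower and 1 higher, against 4.89% of all genes (3.82% lower and 1.07% higher). The fall of acox-1.5 was larger on Rheb RNAi by -2.44 ± 0.32 (limma's adjusted p = 2.5e-05), and acox-1.1 differed by -0.92 ± 0.22 (0.012). acox-1.2 went the other way, at 1.01 ± 0.28 (0.034). Its mean in fed Rheb RNAi worms (4.96) was already close to that of fasted control worms (4.99), both below the array medians (5.55 to 5.86). The other 5 members were at -0.93 (acox-1.6), -0.74 (acox-3), -0.73 (dhs-28, adjusted p = 0.051), -0.62 (daf-22) and -0.56 (maoc-1). The call of acox-1.2 was lost, at 0.89 to 1.02, without control fed array 4 or 5, control fasted array 3, 4 or 5, Rheb fed array 1 or 3, or Rheb fasted array 1 or 3. dhs-28 was called, at -0.84 to -0.73, without control fasted array 2, Rheb fed array 2 or 4, or TOR fasted array 1 or 3, and acox-3 without control fasted array 2 (-0.87) or Rheb fed array 2 (-0.91). The term of dhs-28 was also called at a filter of log2 6 (limma's adjusted p = 0.041) and with an intensity trend in the variance (0.039). Array quality weights (0.033) and a floor at log2 4 (0.043) gave the call too.

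With the replicate number as a block, all 8 members were called between Rheb and control RNAi, 7 lower and 1 higher, against 17.5% of all genes in that fit, of which 10.6% were lower and 6.86% higher. The values were the same and their standard errors smaller, 0.12 in place of 0.3 for maoc-1. Within numbers, 7 of 8 members, all but acox-1.2, were lower in 4 of 4 fasted Rheb RNAi arrays than in their fed counterparts, and acox-1.1, acox-1.6, acox-3 and maoc-1 were lower in 2 or 3 of 5 on control RNAi. acox-1.2 was lower in 5 of 5 on control and in 2 of 4 on Rheb RNAi.

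**Figure D3:**
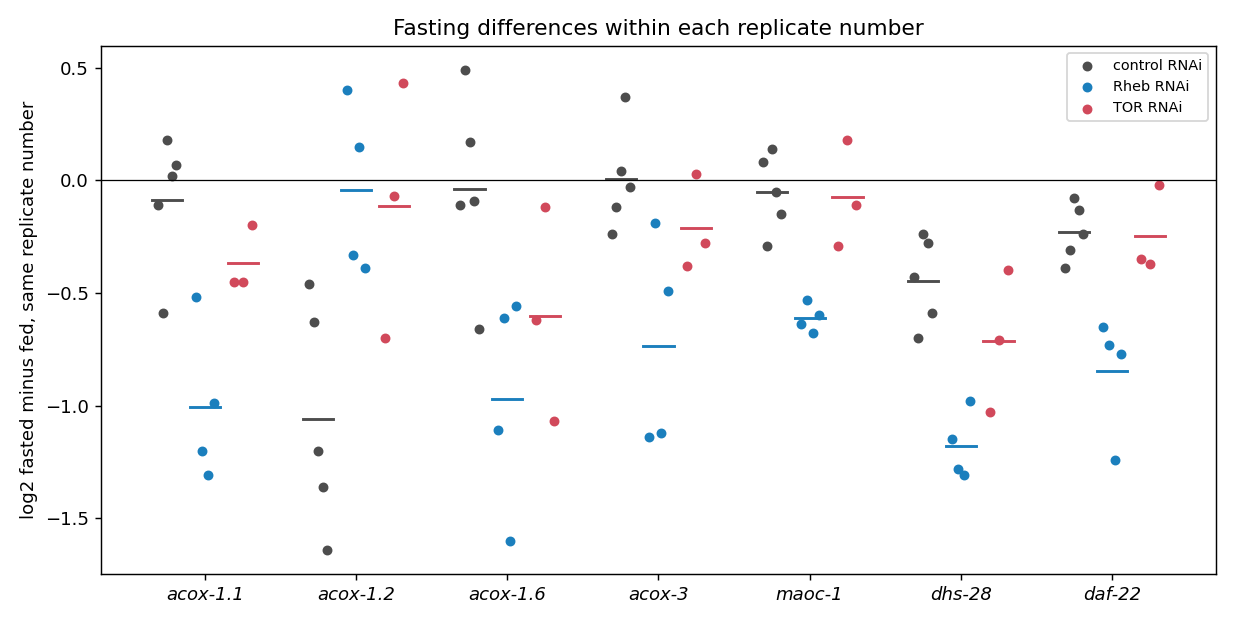
Fasted minus fed log2 intensity for arrays of the same replicate number (y axis), for 7 genes (x axis), on control, Rheb and TOR RNAi plates. Points are numbers and bars their means, and acox-1.5 is left out because its differences run from -5.59 to -1.76. For maoc-1 the 4 Rheb RNAi points lie between -0.68 and -0.53, below all 5 control points.

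Between TOR and control RNAi 1 of 8 members was called, acox-1.5 at -2.9 ± 0.35 (limma's adjusted p = 2.4e-05), against 2.44% of all genes (1.74% lower). acox-1.2 was at 0.95 ± 0.3 (adjusted p = 0.13), and 1.08 (0.049) without control fasted array 1. With the block it was called (0.043), so that 2 of 8 members were called, against 9.11% of all genes in that fit. The 95% intervals of the other 6 members spanned 0, from -1.45 (acox-1.6) to 0.65 (maoc-1) at their outermost. Between TOR and Rheb RNAi limma called 0 of 8 members, against 0.318% of all genes, and 1, acox-1.1 at 0.64 (95% interval 0.13 to 1.15), had an unadjusted p under 0.05. The difference of acox-1.5 was -0.46 (-1.22 to 0.29).

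In fed worms both knockdowns raised acox-1.1 and lowered acox-1.2. On Rheb RNAi 2 of 8 members were called, against 33.1% of all genes (13.9% lower and 19.2% higher). acox-1.1 was higher by 1.11 ± 0.15 (limma's adjusted p = 1e-05), to 216% of control, and acox-1.2 lower, at -1.09 ± 0.2 (0.00021), or 46.8%. With the block 5 of 8 were called, against 52.8% of all genes in that fit, and the added members were acox-3 (0.4), maoc-1 (0.49) and daf-22 (0.27), all higher. Without the block, acox-3 (0.5) and maoc-1 (0.57) were also called when Rheb fed array 2 was left out. On TOR RNAi 3 of 8 were called, against 33.3% of all genes (13.4% lower and 19.9% higher). acox-1.1 was higher by 0.79 ± 0.17 (0.001), acox-1.2 was at -1.5 ± 0.21 (2.2e-05), or 35.3% of control, and acox-1.5 was higher by 0.87 ± 0.25 (0.0092). Without TOR fed array 3 the call of acox-1.5 was lost (0.78, adjusted p = 0.055), and dhs-28, at 0.39 (0.069), was called without control fasted array 2 or TOR fasted array 3. It was also called with array quality weights (0.37, limma's adjusted p = 0.044) and in a fit of the 2 groups alone (0.043).

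In fasted worms acox-1.5 was lower on both knockdowns. On Rheb RNAi 2 of 8 members were called, against 19.6% of all genes (9.04% lower and 10.5% higher). acox-1.5 was at -2.73 ± 0.23 (limma's adjusted p = 4.9e-09), or 15% of control, and dhs-28 at -0.61 ± 0.15 (0.0059), or 65.4%. With the block 4 of 8 were called, against 41.3% of all genes in that fit, the added members being acox-1.6 (-0.68) and daf-22 (-0.35). Without the block acox-1.6, at -0.72, was called without control fed array 2 or Rheb fasted array 4, and acox-3 (-0.54) and daf-22 (-0.55) without control fasted array 2. Further quantile normalization (-0.77, limma's adjusted p = 0.043) and array quality weights (-0.88, 0.028) also gave the call of acox-1.6. On TOR RNAi 2 of 8 were called, against 25.2% of all genes (10.2% lower and 14.9% higher). acox-1.5 was at -2.04 ± 0.25 (3.4e-06), or 24.4% of control, and acox-1.1 was higher by 0.51 ± 0.17 (0.028). The call of acox-1.1 was lost without control fasted array 2 (0.4) or TOR fasted array 2 (0.54) or 3 (0.44), and acox-1.2, at -0.56, was called without control fasted array 3 or 5, with arrays centred on their medians (-0.61), under further quantile normalization (-0.56) and with array quality weights (-0.54). The knockdown comparisons of one feeding state share the control arrays.

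The marker genes of the 3 tissues were also compared between plates. Of all genes, 19.2% were higher and 13.9% lower on fed Rheb RNAi, and 19.9% and 13.4% on fed TOR RNAi. For fasted worms these shares were 10.5% higher and 9.04% lower on Rheb, and 14.9% and 10.2% on TOR RNAi. In fed worms 3 of 12 intestine genes were higher and 4 lower on Rheb RNAi, and 3 higher and 1 lower on TOR RNAi. Epidermis genes were lower in 2 cases on Rheb RNAi, and 2 were higher and 5 lower on TOR RNAi, while 6 and 7 of 12 germline genes were lower. In fasted worms 3 intestine, 1 epidermis and 2 germline genes were lower on Rheb RNAi, and 4, 2 and 2 were lower on TOR RNAi, with 1 epidermis gene higher. ges-1, an intestinal esterase, read 9.35 ± 0.33 (SD, n = 5) in fasted control, 5.68 ± 0.25 (SD, n = 4) in fasted Rheb and 6.78 ± 0.42 (SD, n = 3) in fasted TOR RNAi worms. In fed worms ges-1 read 9.58 ± 0.19 on control, 7.33 ± 0.39 on Rheb and 7.86 ± 0.57 on TOR RNAi. act-5, another intestine gene, read 9.21 ± 0.43 in fasted control, 9.12 ± 0.63 in fasted Rheb and 8.62 ± 0.5 in fasted TOR RNAi worms. In fasted worms 3 of 12 intestine genes lay above control on Rheb RNAi and 5 on TOR RNAi, none of them called. The part of these tissues was not tested.

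**Figure D4:**
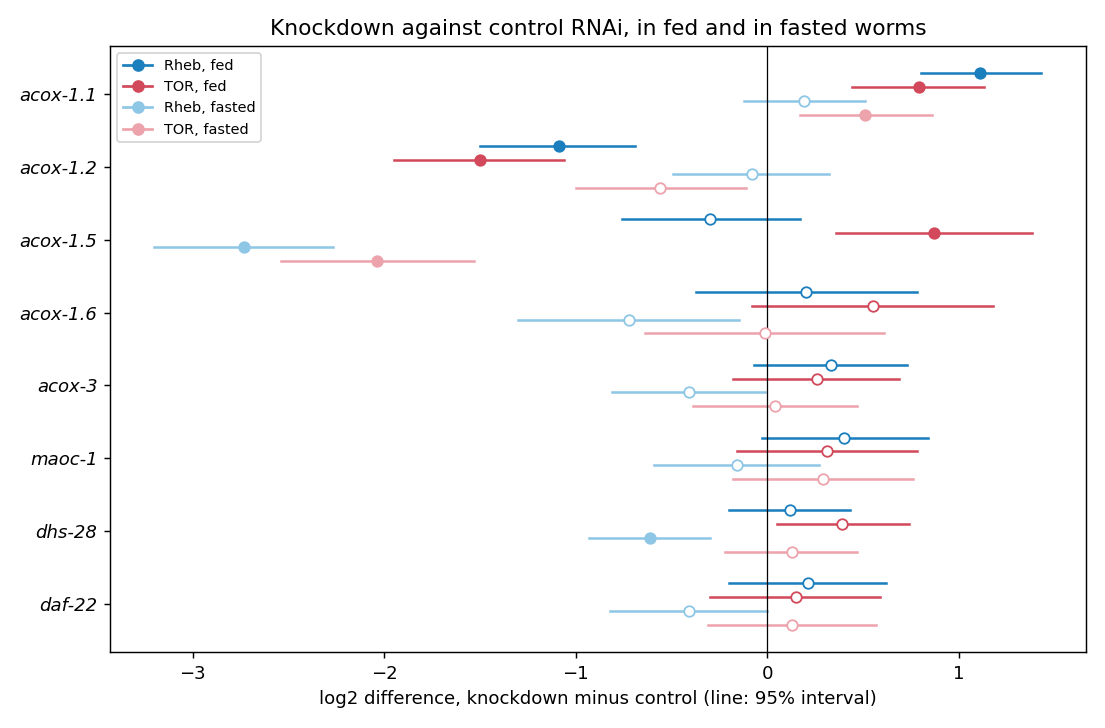
Log2 difference between knockdown and control RNAi (x axis) for the 8 genes (y axis), for Rheb and TOR RNAi in fed and in fasted worms. Points are estimates, filled where limma's adjusted p is under 0.05, and lines are 95% intervals. acox-1.1 and acox-1.2 lie on opposite sides of 0 in fed worms, and acox-1.5 is farthest from 0 in fasted worms.

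Each member whose group means spanned at least 1 was set beside the tested genes nearest to it. Nearness was the root mean square difference of log2 values over the 24 arrays, each gene centred on its own mean but not scaled. Nearest to acox-1.5 were Y40H7A.10 (0.42), lys-1 (0.57) and lys-4 (0.59), the last 2 coding for lysozymes. lys-1 read 13.29 ± 0.31 (SD, n = 5) in fed and 11.3 ± 0.54 in fasted control worms, and 12.69 ± 0.5 (SD, n = 4) in fed and 8.61 ± 0.54 in fasted Rheb RNAi worms. Y40H7A.10 went from 10.11 ± 0.35 to 5.54 ± 0.52 on Rheb RNAi and from 10.93 ± 0.15 to 6.76 ± 0.36 (SD, n = 3) on TOR RNAi. Nearest to acox-1.1 were cpl-1 (0.18), which encodes a cathepsin L protease, tre-2 (0.24), a trehalase, and sfxn-5 (0.25). For acox-1.2 they were sra-14 (0.31), efn-3 (0.31) and F56A11.5 (0.33), for acox-1.6 vem-1 (0.28), F58A6.1 (0.29) and C26D10.6 (0.3), and for dhs-28 ftn-2 (0.2), a ferritin, C49A9.4 (0.23) and cbp-2 (0.24). Among the members, maoc-1 was the gene of rank 4 and acox-3 of rank 12 in the order of likeness to daf-22, and daf-22 was of rank 5 for maoc-1, 7 for acox-3, 9 for acox-1.6 and 16 for dhs-28. No member was nearer than rank 225 to acox-1.1, rank 4894 to acox-1.2 or rank 544 to acox-1.5. Because values were not scaled, a gene of smaller span lies far from acox-1.5 (span 6) whatever its direction. Arrays and their processing are shared by all these values.

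**Figure D5:**
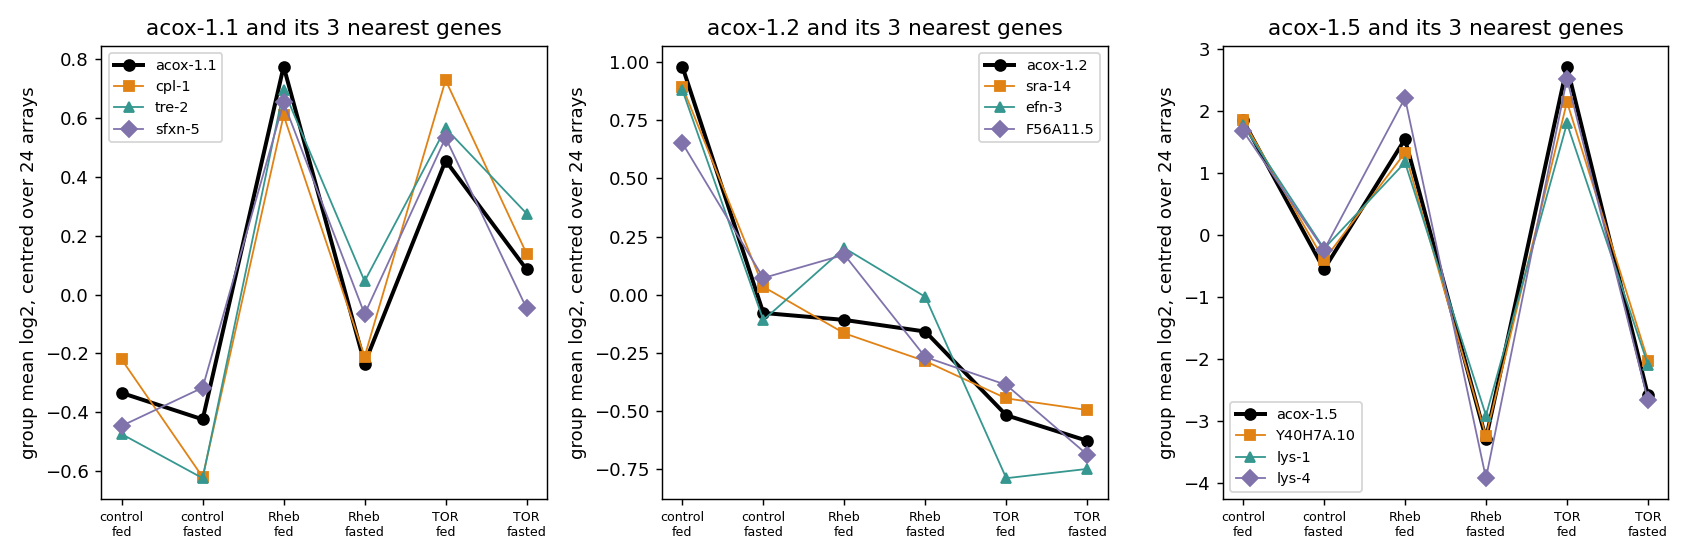
Group means of log2 intensity, centred over the 24 arrays (y axis), in the 6 groups (x axis), for acox-1.1, acox-1.2 and acox-1.5 (black) and the 3 tested genes nearest to each. Lines join groups to guide the eye only. acox-1.5 and its neighbours are lowest in fasted Rheb RNAi worms.

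Other genes listed with the peroxisome were read from fixed lists. Beside the fasting counts of these and later lists, 7.91%, 8.67% and 5.16% of all genes fell on control, Rheb and TOR RNAi. The shares that rose were 11%, 3.23% and 1.08%. Of 4 tested ABC transporter genes of the pmp family, named after the peroxisomal membrane, 1 fell with fasting on control, 2 on Rheb and 1 on TOR RNAi. What each transporter carries, and in which membrane, was not tested. pmp-1 fell by 0.57 ± 0.19 (limma's adjusted p = 0.034) on control, 2.72 ± 0.21 (1.7e-09) on Rheb and 2.87 ± 0.24 (1.1e-08) on TOR RNAi, and the interaction was -2.14 ± 0.28 and -2.3 ± 0.31 against control. The control call of pmp-1 was lost, at -0.57 to -0.45, without control fed array 3, 4 or 5 or control fasted array 1, 2 or 5. pmp-2 fell by 1.47 ± 0.22 (3.1e-05) on Rheb RNAi and was at 0.12 on control and -0.72 on TOR RNAi. On TOR RNAi pmp-2 was called with the block (0.0053) and without control fasted array 2 (0.04). Like acox-1.1, pmp-1 was higher in fed knockdown worms, by 0.7 ± 0.2 on Rheb and 1.98 ± 0.22 on TOR RNAi. pmp-5 went the other way, from 7.2 ± 0.53 (SD, n = 5) in fed control worms to 6.19 ± 0.2 (SD, n = 4) on Rheb and 5.53 ± 0.96 (SD, n = 3) on TOR RNAi, both called. Its Rheb call was lost, at -0.96 to -0.82, without control fed array 4 or 5 or Rheb fed array 1 or 2. With fasting on control RNAi pmp-5 was at 0.78, and was called with the block (0.015), without control fed array 4 (0.97) and without control fasted array 1 (1.04).

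Of 11 peroxisome biogenesis genes, which build the organelle and import its enzymes, 3 rose and 2 fell on control, 1 rose and 4 fell on Rheb and 1 fell on TOR RNAi. prx-11, which acts in peroxisome division, fell on all 3 plates, by 1.05 ± 0.19, 1.45 ± 0.21 and 1.14 ± 0.25 (limma's adjusted p = 0.00034, 3.3e-05 and 0.004). Of 9 other peroxisomal enzymes 1 rose and 1 fell on control and 3 fell on Rheb RNAi, and on TOR RNAi limma called 0, with 4 at an unadjusted p under 0.05. With the block these counts became 3 higher and 2 lower on control RNAi (22.7% and 15.5% of all genes). They were 6 lower on Rheb (13.4%) and 5 lower on TOR RNAi (8.45%). ctl-2, the peroxisomal catalase, fell by 0.83 ± 0.21 (0.01) on Rheb RNAi and was at 0.37 on control and -0.65 on TOR RNAi, both called with the block (0.028 and 0.012). lonp-2, the peroxisomal Lon protease, fell by 0.92 ± 0.19 (0.0013) on Rheb RNAi and was at -0.15 on control and -0.44 on TOR RNAi, the last called with the block (0.045). gstk-1, a glutathione transferase, fell by 1.63 ± 0.18 (4.7e-07) on control RNAi. It was at -0.59 on Rheb and -0.66 on TOR RNAi, both called with the block (0.0033 and 0.0069), and on Rheb RNAi also without Rheb fed array 1 (-0.68) or 2 (-0.76) or Rheb fasted array 4 (-0.7).

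Only 4 of 8 ascaroside assembly genes and 3 of 11 ascaroside receptor genes were tested, the others being dim or without a probe set of their own. Of the assembly genes limma called 0 on control RNAi with fasting, and 0 had an unadjusted p under 0.05, while 1 fell on Rheb and 2 on TOR RNAi. cest-4, a carboxylesterase gene of the family that joins groups to ascarosides, fell by 1.61 ± 0.24 (limma's adjusted p = 3.2e-05) on Rheb and 1.33 ± 0.27 (0.0024) on TOR RNAi, and was at -0.44 on control RNAi, called there with the block (0.031). cest-2.1, of the same family, fell by 0.91 ± 0.26 (0.037) on TOR RNAi, a call lost, at -0.95 to -0.84, without TOR fed array 1 or 3 or any TOR fasted array. It was at -0.6 on Rheb RNAi, called with the block (0.01) and without Rheb fed array 1 (-0.75). In fasted worms 3 of 4 assembly genes were lower than control on each knockdown, against 9.04% of all genes on Rheb and 10.2% on TOR RNAi. Among them cest-1.1 read 3.55 in fasted Rheb and 3.15 in fasted TOR RNAi worms, below log2 4. Its Rheb call was lost without control fasted array 1, 2 or 3 or Rheb fasted array 3 or 4. The TOR call of cest-4 was lost, at -0.8 to -0.6, without any TOR fasted array or control fasted array 1, 3, 4 or 5. It was also lost without control fed array 1 or 4, Rheb fasted array 2 or 3, or TOR fed array 1. Of the receptors limma called 0 with fasting on any plate, with 1 on control RNAi at an unadjusted p under 0.05. tyra-2, at 0.38 there, was called with the block (0.034) and without control fasted array 3 (0.47). In fasted worms daf-37 (-0.65) and tyra-2 (-0.56) were lower on TOR RNAi than on control. Both were dim, with means of 4.64 (daf-37) and 4.03 (tyra-2) in fasted TOR RNAi worms, below the array medians (5.55 to 5.86). The call of daf-37 was lost, at -0.64 to -0.57, without control fasted array 1 or 2 or TOR fasted array 1 or 2, and that of tyra-2 (-0.47) without TOR fasted array 1. Of 17 mitochondrial beta-oxidation genes 3 rose and 1 fell with fasting on control, and 1 rose on Rheb and 1 on TOR RNAi. With the block 5 rose on control RNAi, against 22.7% of all genes, and 1 fell on Rheb RNAi, against 13.4%. acs-2, a mitochondrial acyl-CoA synthetase, rose by 6.78 ± 0.44, 2.9 ± 0.49 and 2.69 ± 0.57 on control, Rheb and TOR RNAi (1.7e-10, 0.00017 and 0.0029).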

How the data were processed

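The deposited values are probe set intensities on a linear scale, made by the authors with GCRMA (version not given in the sources used here) per the submitters' processing notes, and GeneSpring GX 7.3.1 is named in the series' design text. GCRMA subtracts background and makes the arrays' distributions alike, so a shift shared by every transcript is lost. From these intensities log2 values were taken. Of 22625 probe sets, 20766 name 1 gene, 887 name several, 895 name none and 77 are controls, and only the first were used, by GEO's platform annotation. Each gene was read by its probe set of highest mean, and 12277 genes with log2 above 4 on at least 3 of 24 arrays were tested. limma 3.58.1 (R 4.3.3) fitted 6 group means over all arrays with moderated variances (lmFit, eBayes), and p was Benjamini-Hochberg adjusted over all genes within each comparison. The fit was checked on simulated data. Members and lists were chosen with earlier results of these data known. Beside members and targets, the text names list genes (up to 4 called genes of smallest adjusted p per list) and the 3 nearest genes of members spanning at least 1.

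The labels call the arrays biological replicates, and the design text speaks of independent experiments. Deviations from group means over all genes correlated between same-numbered arrays of the 4 control and Rheb RNAi groups (0.18 to 0.73) and, on TOR RNAi, between its fed and fasted arrays (0.5 to 0.57), but not between TOR RNAi and the others (down to -0.38). "The block" in the report is therefore the replicate number with TOR RNAi numbers apart. No sequence is shown, and coordinates were used only to put genes in order along the chromosomes. Alternatives were 2 scalings, 2 filters, 3 variance models, 2 blocks, fits of the compared groups alone, 2 treatments of probe sets, a floor at log2 4, and leaving out arrays.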

Additional observations from a re-analysis of the deposited data

Results flagged for a closer look

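acox-1.6 read 5.94 on Rheb fed array 2, while the other 3 fed Rheb RNAi arrays read 6.52 to 6.64. Its gap to the nearest array, over the group's range, passed the critical value of Dixon's test by less than the digits kept here. It was the only value so marked among 32 sets of 1 gene and 1 group, and chance marks about 1 set in 20.

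The fasting response differed between plates by a tested interaction term in 4 cases. Between Rheb and control RNAi it was -0.92 for acox-1.1, 1.01 for acox-1.2 and -2.44 for acox-1.5. By the test acox-1.2 fell on control RNAi only, and it was dim in fed (4.96) and fasted (4.91) Rheb RNAi worms. Between TOR and control RNAi it was -2.9 for acox-1.5. The fed and fasted control arrays enter both comparisons.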

How the results depend on the processing

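Counts are of members called of 8. With the replicate block and TOR RNAi numbers apart, the Rheb minus control response went from 3 to 8, TOR minus control from 1 to 2, Rheb against control from 2 to 5 in fed and from 2 to 4 in fasted worms. That fit cannot estimate TOR against the other plates or the F test. With the replicate block over all plates, whose numbers the check did not pair, the counts were 5 for Rheb minus control, 4 for fed Rheb and 6 for fed TOR against control (11.5%, 47.1% and 54.2% of all genes). Beside the calls named, neither block changed another count by over 1.5 times. At a filter of log2 6, where acox-1.2 drops out and 7 members are tested, fed Rheb against control gave 1. Fitting only the groups compared, and dropping Rheb fed array 3 with TOR fasted array 2 (the highest 3' to middle ratios, chosen after seeing the data), each gave 1 for fasting on TOR RNAi and 1 for fasted TOR against control. The mean of probe sets gave 1 for fasting on TOR RNAi. Without _s_at and _x_at probe sets only 4 members can be tested, and counts were 2 for fasting on Rheb, 1 for fasting on TOR, 0 for TOR minus control (where the probe set of acox-1.5, the called member, is left out), 1 for fasted Rheb, 1 for fasted TOR and 3 for the F test.

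Leaving out each array in turn gave 2 to 3 for fasting on control, 4 to 7 on Rheb and 1 to 2 on TOR RNAi, 2 to 5 for Rheb minus control, 1 to 2 for TOR minus control, 0 to 0 for TOR minus Rheb, 2 to 4 for fed and 2 to 4 for fasted Rheb against control, 2 to 4 for fed and 1 to 3 for fasted TOR against control, and 4 to 8 for the F test. No member's called difference changed sign under any alternative run. The epidermis gene sqt-3 turned, at 0.18 for fasting on Rheb RNAi and 0.28 for fed TOR against control, without _s_at and _x_at probe sets, where another probe set stands for it. Centring arrays on their medians moved the median of all genes from 0.02 to -0.15 for fed Rheb against control from 0.04 to -0.15 for fed TOR against control, from 0.02 to 0.17 for Rheb minus control and from 0.003 to 0.131 for TOR minus control. Signal limits acox-1.2, dim on most arrays. It also limits acox-1.5 on the 7 fasted Rheb and TOR RNAi arrays, where acox-1.5 lay below the array's median. On Rheb fasted array 1 acox-1.5 read 3.94, below log2 4, and its fall may be understated.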
